A study of Rattus norvegicus with 6 samples.

Results

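The genes described here are the secreted WNT proteins, their frizzled and LRP receptors, their secreted inhibitors and the core proteins that carry the signal to the nucleus. Members were taken by gene symbol from the deposited expression table: every Wnt and Fzd gene, Sfrp1 to Sfrp5, Dkk1 to Dkk4, Lrp5, Lrp6, Frzb, Wif1, Axin1, Axin2, Ctnnb1, Lef1, Tcf7, Tcf7l1 and Tcf7l2. This gave 48 of the 30001 features listed, namely 19 ligands, 10 frizzled receptors, 2 LRP co-receptors, 10 secreted inhibitors and 7 intracellular members. The cells were neonatal rat ventricular myocytes, contracting cells taken directly from the ventricles of Sprague-Dawley rats in the first 3 postnatal days. They were pre-plated for 2 h and cultured for 24 h before treatment, in medium with 10% fetal bovine serum. The time under treatment is not given here. 3 libraries came from cells that received the negative control (NC) and 3 from cells that received a short hairpin RNA against Decr1 (sh-Decr1), a mitochondrial reductase needed to break down unsaturated fatty acids. The labels give 1 hairpin name and put all libraries in batch 1, and they do not say whether the replicates came from separate cultures or animals, so any p-value given here reflects the spread of these libraries alone, which may be technical.

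WNT proteins are lipid-modified ligands that leave the cell with the carrier Wls and bind frizzled receptors, alone or together with Lrp5 or Lrp6. In the canonical branch the bound receptors disable a destruction complex built on axin, and beta-catenin (Ctnnb1) then accumulates and activates genes with the factors Lef1, Tcf7, Tcf7l1 and Tcf7l2; Axin2 is among the genes activated and acts as feedback. Sfrp proteins, Frzb and Wif1 bind the ligands outside the cell, Dkk1, Dkk2 and Dkk4 bind the LRP co-receptors, and in the heart these genes are known from cardiac development and from scar-forming fibroblasts and epicardium.

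The libraries held 35290664 to 40108670 fragments. Levels are given as FPKM, fragments scaled to gene length and to library depth, and 3 reads on a gene of 1 kb corresponded to 0.0748 to 0.0850 FPKM. Decr1 itself was at 43.6, 44.3 and 42.8 FPKM in the control libraries and fell to 3.33, 1.24 and 2.36 FPKM with the hairpin, 5.30% of the control mean. Of the 11975 features whose mean reached 1 FPKM, 80.8% passed an adjusted p of 0.05 (limma on log2(FPKM + 1), Benjamini-Hochberg adjustment), 48.4% higher and 32.4% lower in the knockdown. Fold changes are on that log2 scale and understate the change of genes at low levels. Cardiomyocyte markers were abundant in every library, with a summed level of 18713 to 19344 FPKM in the control and 13098 to 13997.5 FPKM in the knockdown, and 5 of 12 were higher and 7 lower. Nppa made up most of the control sum at 11702 ± 276 FPKM, the ventricular light chain Myl2 fell by 3.98 on the log2 scale, and the sarcomere gene Actc1 rose by 0.55 (limma adjusted p = 6.70e-11 and 1.03e-06). All 14 fibroblast markers fell, from a summed 7753 to 8619 FPKM to 656 to 753 FPKM, and none was at 0. The 7 epicardial and mesothelial markers tested, of 8, also fell, and all 8 were called lower when features with low means were kept. The sum of the 8 went from 207 to 224 FPKM to 9.57 to 11.4 FPKM, so most of their level lay in the control libraries. Fewer cells of a type and less RNA per cell cannot be told apart in these bulk libraries. The part of these cell markers in the results that follow was not tested.

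Of the 48 members, 23 reached this mean level: 3 ligands, 8 frizzled receptors, both LRP co-receptors, 6 secreted inhibitors and 4 intracellular members. Of these 23, 19 (82.6%) passed the threshold, 6 higher and 13 lower in the knockdown, against 80.8% of all features tested. The share called was therefore near the background. The level filter shapes the direction of these calls: Wnt4, Frzb and Sfrp4 reached it only through their control libraries and count as lower, while Axin2 and Wnt5b, above 1 FPKM on average only in the knockdown, were kept out. The median log2 fold change was -0.26 over the 23 tested members and 0.14 over all features tested, and without the filter it was 0.0046 over the 44 members with reads and 0.03 over all features. Ctnnb1, Fzd6, Wnt5a and Wif1 did not pass. Control and knockdown libraries did not overlap for 20 of the 23, compared with 82.3% of all features tested. Other scalings moved the median of all features: median-ratio scaling put it at -0.02, with 79.8% of features called, 38.8% higher and 41% lower. Quantile normalization put it at 0.03, with 79.8% called, 41.7% higher and 38.1% lower. Under either of them 5 members were higher and 16 lower. Tcf7l1 was then no longer called and Ctnnb1, Fzd6 and Wnt5a were called lower. The other 25 members lay below 1 FPKM on average. 21 of them had reads, and Wnt3a, Wnt8a, Wnt8b and Wnt9b had none in any library. Without the level filter, 52.9% of 22634 features were called, 32.7% higher and 20.1% lower, and of the 44 members with reads 13 were higher and 14 lower. With a filter at 0.1 FPKM, 73.4% of 16014 features were called, 44.6% higher and 28.7% lower, and of 35 members 13 were higher and 14 lower. With limma voom on recovered reads, 66.6% of 19112 features were called, 41.4% higher and 25.2% lower, and of 40 members 14 were higher and 15 lower.

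**Figure D1:**
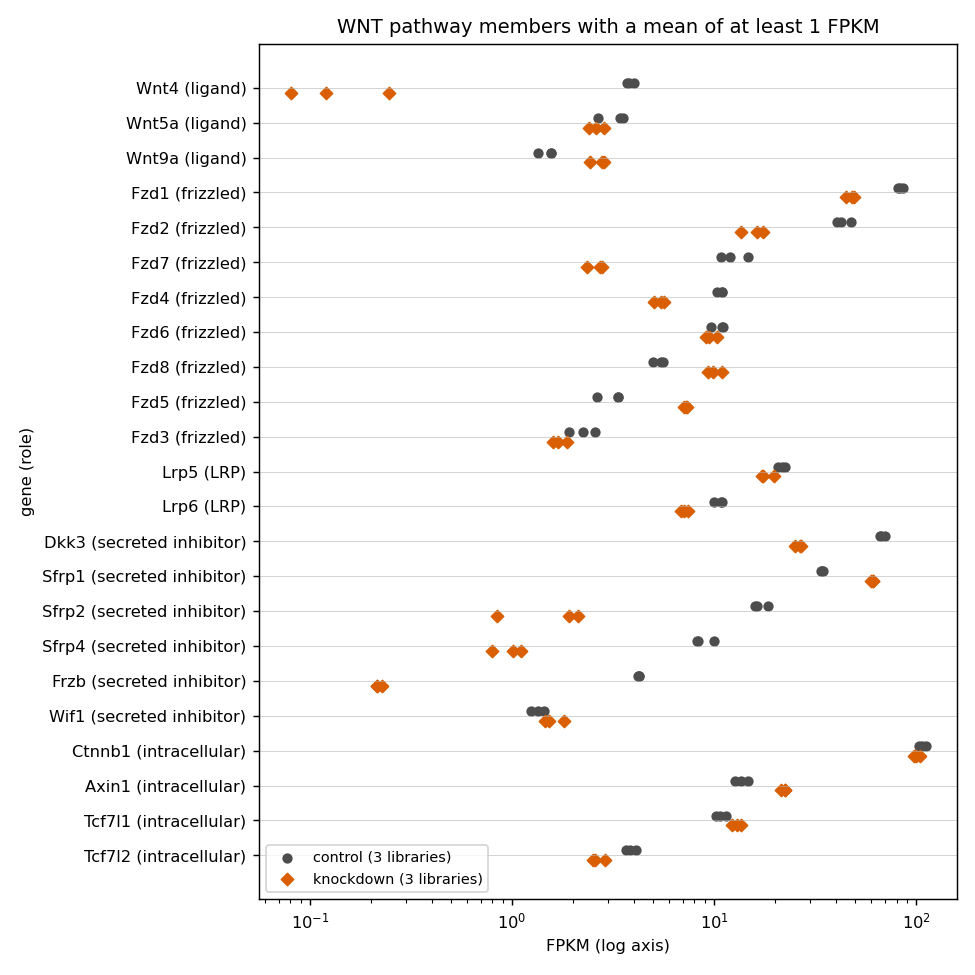
Level of each tested member in each of the 6 libraries (FPKM, log axis), grouped by role, circles control and diamonds knockdown. Ctnnb1 stands highest at about the same level in both groups, while Wnt4, Frzb, Sfrp2 and Sfrp4 lie far lower in the knockdown libraries.

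**Figure D2:**
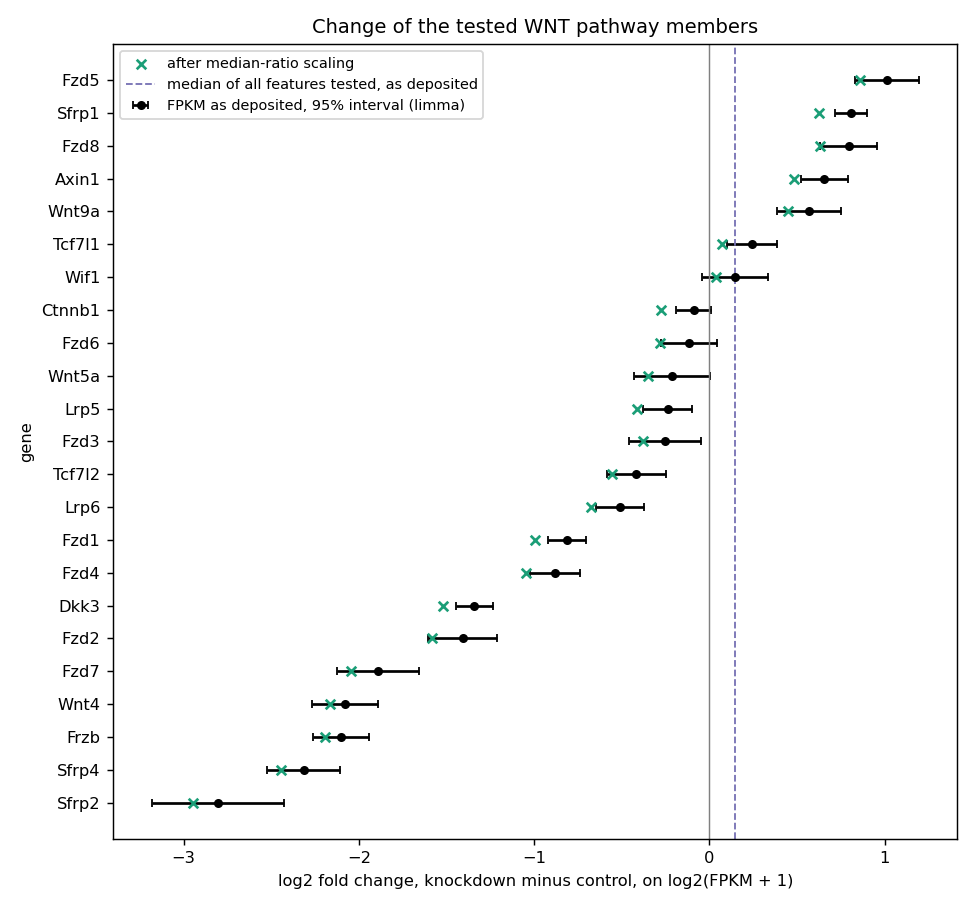
Log2 fold change of each tested member (knockdown minus control, on log2(FPKM + 1)) as a black point with its 95% limma interval, ordered by size; crosses give the value with median-ratio scaling and the dashed line the median of all features, 0.14. Sfrp2 lies farthest below 0 at -2.81 and Fzd5 farthest above 0 at 1.01.

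Among the ligands, Wnt4 fell and Wnt9a rose. Wnt4, a ligand known from kidney and gonad development, was at 3.80, 4.02 and 3.73 FPKM in the control libraries. With the knockdown it was at 0.120, 0.247 and 0.0805 FPKM. The groups were far apart, and recovered reads went from 632 to 674 per control library to 12 to 39 per knockdown library. The knockdown mean was 3.87% of the control mean (log2 fold change -2.08, SE 0.08, limma adjusted p = 8.03e-09). Wnt4 reached the level filter only through its control libraries, so the filter favoured this direction. Without the filter the limma adjusted p was 5.11e-06. Wnt9a, known from joint and limb development, was at 1.34, 1.56 and 1.55 FPKM in the control libraries. With the knockdown it was at 2.42, 2.84 and 2.80 FPKM. All 3 knockdown libraries were above all 3 control libraries, and the mean was 181% of control (log2 fold change 0.57, SE 0.08, limma adjusted p = 8.98e-05). Wnt5a, the best-known ligand of the branch that does not use beta-catenin, was at 3.54, 2.66 and 3.43 FPKM in the control and at 2.86, 2.61 and 2.40 FPKM in the knockdown. These libraries overlapped, and the log2 fold change of -0.21 (SE 0.10) had a limma adjusted p of 0.0665. The Wnt5a call depended on 1 library and on scaling: the adjusted p was 0.00931 without control replicate 2, 0.00714 with median-ratio scaling and 0.0282 when quantile normalized.

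The summed level of the 19 ligands was 10.0 ± 0.146 FPKM in the control and 9.06 ± 0.548 FPKM in the knockdown (SD, n = 3 each), but its makeup differed. Wnt4 made up 38.4% ± 1.95 of the ligand sum in the control and 1.62% ± 0.855 in the knockdown. Wnt9a went the other way, from 14.8% ± 1.18 to 29.7% ± 3.23. Wnt5a held a similar share in both groups, 31.96% ± 4.64 and 29.0% ± 2.06. Wnt5b, Wnt7b and Wnt11 together account for much of the remainder in the knockdown, with shares of 13.3%, 9.63% and 8.23%, compared with 5.57%, 0.0488% and 0.791% in the control.

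**Figure D3:**
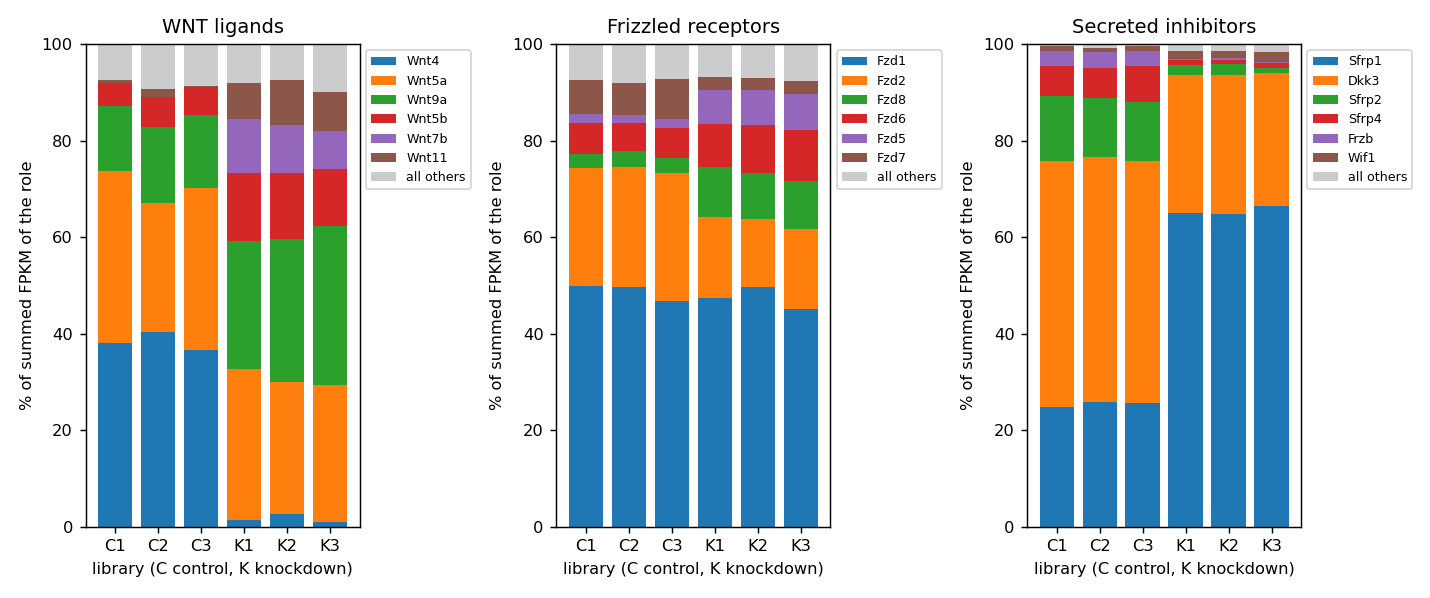
Stacked bars give the share of each member in the summed FPKM of its role (percent) in each library, C1 to C3 control and K1 to K3 knockdown, for ligands, frizzled receptors and secreted inhibitors. Wnt4 averages 38.4% of the ligand sum in the control and 1.62% in the knockdown, and Sfrp1 goes from 25.5% to 65.4% of the inhibitor sum.

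These 3 ligands and Wnt2 lay below the level filter, so recovered reads describe them better than FPKM. Wnt7b, a ligand of lung and vascular development, had 2, 0 and 0 reads in the control libraries and 132, 122 and 79 in the knockdown libraries. Every knockdown library was far above every control library, and the depth-scaled ratio was 181 (95% counting interval 49.7 to 1502), resting on 2 control reads from 1 library. Without the level filter its log2 fold change was 0.90 (limma adjusted p = 0.000154), and voom on the reads gave 7.12 (SE 1.09, adjusted p = 4.86e-06). Wnt11, known from cardiac development and planar cell polarity, had 7, 21 and 2 reads in the control and 80, 106 and 77 in the knockdown. The groups did not overlap, and the mean FPKM was 9.48-fold higher in the knockdown, or 21.2-fold without control replicate 2, which held most of the control reads (limma without filter, adjusted p = 0.000324). Wnt5b, a close relative of Wnt5a, had 47, 61 and 61 reads against 122, 124 and 90, a ratio of 2.16 (95% counting interval 1.79 to 2.62) with an adjusted p of 0.00211 in the same limma fit. By RefSeq it overlaps the protein-coding gene Fbxl14.

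Wnt2, a ligand of early heart and lung development, had 67, 44 and 32 reads in the control libraries and 8, 0 and 4 in the knockdown libraries. It was lower in all 3 knockdown libraries, at 9.13% of the control mean, or 4.75% without knockdown replicate 1 (limma without filter, adjusted p = 0.00657). Wnt10b had 5, 0 and 6 reads against 8, 15 and 26 and missed the threshold without the filter (limma adjusted p = 0.057) but passed it with voom (adjusted p = 0.0202). It overlaps Tuba1c, an abundant tubulin gene, so the source of its few reads is uncertain. Wnt2b (11, 17 and 15 reads against 14, 11 and 19), Wnt6 (18, 38 and 39 against 27, 17 and 12) and Wnt16 (6, 5 and 2 against 2, 7 and 1) had overlapping libraries. Wnt3, Wnt10a, Wnt7a and Wnt1 had at most 6 reads in any library.

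The frizzled receptors were the role with the most tested members, and 5 of 8 fell, 2 rose and Fzd6 did not pass. Of all features tested, 32.4% were lower and 48.4% higher. Without the filter 4 of 10 frizzled genes were lower and 2 higher, against 20.1% and 32.7% of all features. With voom the counts were the same, against 25.2% and 41.4%. The summed level of the frizzled genes went from 172 ± 7.07 FPKM to 99.95 ± 3.64 FPKM (SD, n = 3 each). The strongest decrease was that of Fzd7, a receptor known from stem cells, at 11.96, 10.8 and 14.7 FPKM in the control libraries and 2.79, 2.34 and 2.72 FPKM in the knockdown libraries. The groups were well apart and the knockdown mean was 20.9% of control (log2 fold change -1.89, SE 0.10, limma adjusted p = 7.18e-08). Fzd2, a receptor for Wnt5a, was at 42.4, 40.6 and 47.4 FPKM against 17.4, 13.6 and 16.4 FPKM, again with no overlap, and 36.4% of control (log2 fold change -1.41, SE 0.09, limma adjusted p = 1.89e-07). Fzd1 was the most abundant frizzled gene in both groups and fell from 86.2, 81.7 and 83.4 FPKM to 49.2, 48.0 and 44.7 FPKM (log2 fold change -0.81, SE 0.05, limma adjusted p = 1.38e-07). Its share of the frizzled sum differed little, 48.8% ± 1.74 against 47.4% ± 2.22.

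Fzd4, which is also the receptor for the ligand norrin in the eye, fell to 50.1% of control, from 10.95, 10.95 and 10.3 FPKM to 5.48, 5.02 and 5.63 FPKM (limma adjusted p = 5.33e-07). Fzd3, known from axon guidance, was at 1.92, 2.25 and 2.58 FPKM against 1.69, 1.59 and 1.86 FPKM. Its highest knockdown library lay just under the lowest control library. The log2 fold change of -0.26 had a limma adjusted p of 0.0258, which rose to between 0.0578 and 0.0983 without control replicate 2, control replicate 3, knockdown replicate 1 or knockdown replicate 2. Fzd6, another receptor of planar cell polarity, was at 11.1, 9.64 and 10.9 FPKM against 9.11, 9.48 and 10.4 FPKM, with overlapping libraries (log2 fold change -0.11, SE 0.07, limma adjusted p = 0.161).

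Fzd5 and Fzd8, a closely related pair that signals mainly through beta-catenin, both rose. Fzd5 was at 3.33, 2.64 and 3.36 FPKM in the control libraries and 7.29, 7.13 and 7.38 FPKM in the knockdown libraries. The groups did not overlap and the mean was 234% of control (log2 fold change 1.01, SE 0.08, limma adjusted p = 1.23e-06). By RefSeq, Fzd5 overlaps another protein-coding gene. Fzd8 was at 5.00, 5.61 and 5.47 FPKM against 10.9, 9.35 and 9.89 FPKM, 187% of control, also without overlap (log2 fold change 0.80, SE 0.07, limma adjusted p = 3.06e-06). Fzd8 went from 3.12% to 10.04% of the frizzled sum and Fzd5 from 1.80% to 7.27%. Fzd9 (10, 8 and 17 reads against 2, 6 and 5) and Fzd10 (4, 0 and 6 against 1, 22 and 6) were too low to test on FPKM with the filter, and neither passed without it.

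Both LRP co-receptors fell. Lrp6, the co-receptor needed for most canonical signaling, was at 10.96, 10.01 and 10.8 FPKM in the control libraries and 7.07, 6.90 and 7.45 FPKM in the knockdown libraries. The groups were separate, and the mean was 67.5% of control (log2 fold change -0.51, SE 0.06, limma adjusted p = 2.61e-05). Lrp5, known from bone mass and retinal vessels, was at 21.8, 20.7 and 22.4 FPKM against 19.7, 17.4 and 17.5 FPKM. It was lower in all 3 knockdown libraries, at 84.1% of control (log2 fold change -0.24, SE 0.06, limma adjusted p = 0.00487).

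Among the secreted inhibitors, 4 of 6 tested members fell, Sfrp1 rose and Wif1 did not pass (32.4% of all features tested fell and 48.4% rose). The median log2 fold change was -1.72 over these 6, of which Frzb and Sfrp4 reached the level filter only through the control libraries. Over all 10 inhibitors it was -0.12 without the filter and -0.57 with voom, and 3 were higher and 5 lower in both fits. Frzb, which binds ligands through a frizzled-like domain, was at 4.25, 4.20 and 4.26 FPKM in the control libraries and 0.215, 0.215 and 0.228 FPKM in the knockdown libraries. Replicates agreed closely, with 228 to 234 reads per control library and 11 in each knockdown library, and the knockdown mean was 5.17% of control (log2 fold change -2.10, SE 0.07, limma adjusted p = 2.44e-09). Sfrp2, a fibroblast-derived member of the same family, was at 18.5, 15.9 and 16.3 FPKM against 1.91, 2.12 and 0.846 FPKM. Its libraries were far apart, at 9.60% of control (log2 fold change -2.81, SE 0.17, limma adjusted p = 1.40e-07). Sfrp4 was at 8.30, 8.25 and 9.95 FPKM against 1.11, 0.801 and 1.01 FPKM, 11.02% of control (log2 fold change -2.32, SE 0.09, limma adjusted p = 7.86e-09). It overlaps the protein-coding gene Nme8. The summed fibroblast markers were at 8.51% and the summed epicardial markers at 4.87% of control in the same libraries, and their part in these decreases was not tested.

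Dkk3, a divergent Dickkopf protein that does not bind the LRP co-receptors as its relatives do, was the most abundant inhibitor in the control at 69.9, 66.6 and 67.3 FPKM. In the knockdown libraries it was at 26.9, 26.5 and 25.2 FPKM. It fell to 38.6% of control with tight replicates (log2 fold change -1.34, SE 0.05, limma adjusted p = 3.03e-09). Sfrp1 took its place as the most abundant, at 34.0, 34.0 and 34.5 FPKM in the control and 61.3, 59.7 and 60.9 FPKM in the knockdown. All knockdown libraries lay above all control libraries, and the mean was 177% of control (log2 fold change 0.81, SE 0.04, limma adjusted p = 4.15e-08). The inhibitor sum fell from 134 ± 2.95 FPKM to 92.6 ± 1.46 FPKM, and the share of Sfrp1 in it went from 25.5% ± 0.606 to 65.4% ± 0.933 while that of Dkk3 went from 50.6% ± 0.454 to 28.3% ± 0.687 (SD, n = 3 each). Wif1 was at 1.43, 1.24 and 1.34 FPKM against 1.52, 1.45 and 1.80 FPKM. Its groups did not overlap, but the log2 fold change of 0.15 (SE 0.08) did not pass (limma adjusted p = 0.13).

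Of the inhibitors below the level filter, Dkk1 and Dkk2 were higher and Sfrp5 was lower in the knockdown without the filter. Dkk1, the best-studied blocker of Lrp5 and Lrp6, had no read in any control library and 37, 29 and 43 reads in the knockdown libraries. Against a floor of 3 reads over the control group it was at least 39.5-fold higher (limma without filter, adjusted p = 0.000226). Dkk2 had 35, 35 and 16 reads against 78, 78 and 77, 295% of control in FPKM (adjusted p = 0.000908 in the same limma fit). Sfrp5 had 30, 56 and 41 reads against 11, 5 and 25, which gave 35.7% of control, or 20.2% without knockdown replicate 3 (adjusted p = 0.0362 in the same limma fit). Dkk4 had no control read and 4, 12 and 0 in the knockdown, and did not pass (limma adjusted p = 0.176).

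**Figure D4:**
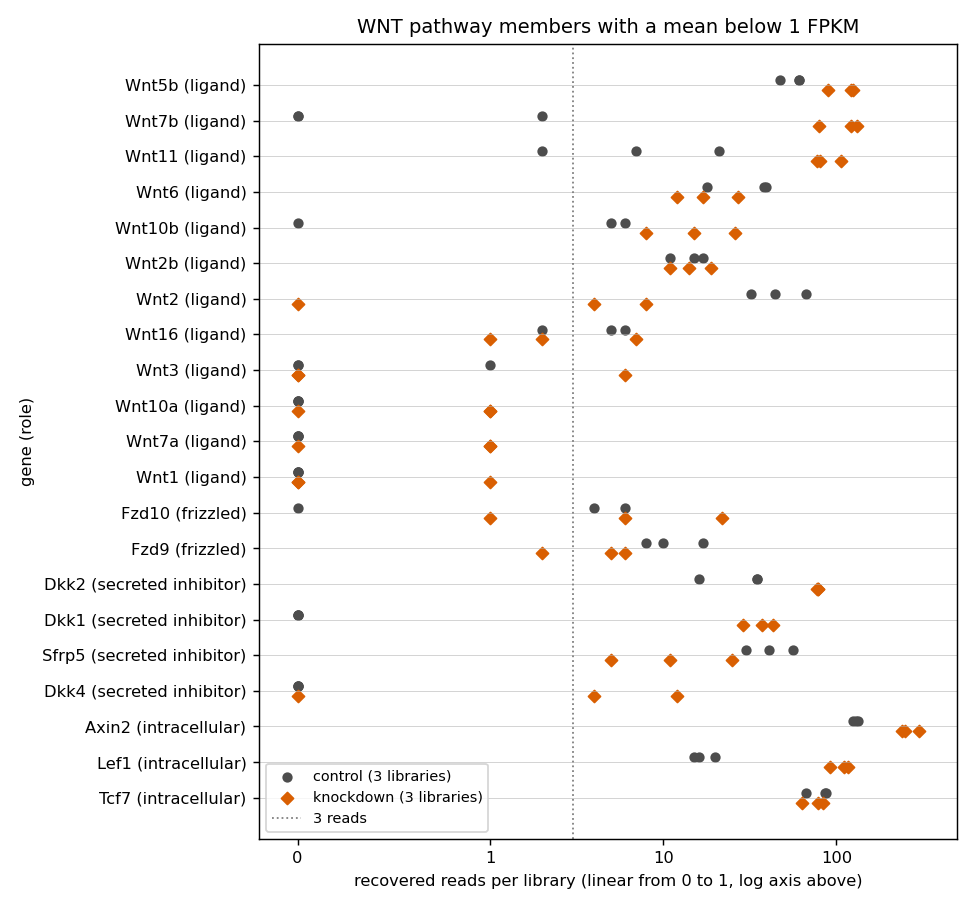
Recovered reads in each library for the 21 members with reads below the level filter (axis linear from 0 to 1, logarithmic above), circles control and diamonds knockdown; the dotted line marks 3 reads. Dkk1 has reads in the knockdown libraries only, Wnt7b and Lef1 stand above the control libraries, and Tcf7 lies at the same height in both groups.

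The intracellular members did not move as a block. Ctnnb1, which encodes beta-catenin, was the most abundant member of all, at 104, 107 and 111 FPKM in the control libraries and 105, 97.9 and 99.99 FPKM in the knockdown libraries. The libraries overlapped, and the log2 fold change of -0.09 (SE 0.05) did not pass (limma adjusted p = 0.088). With median-ratio scaling it was -0.28 with an adjusted p of 0.000375, and when quantile normalized the adjusted p was 0.000166, so the call depended on scaling. Axin1, the scaffold of the destruction complex, rose from 13.6, 12.7 and 14.7 FPKM to 22.5, 21.4 and 22.5 FPKM. The groups were separate and the mean was 162% of control (log2 fold change 0.66, SE 0.06, limma adjusted p = 3.39e-06). Axin2, the inducible relative that canonical signaling switches on, had 124, 133 and 129 reads in the control and 301, 238 and 249 in the knockdown, or 0.582, 0.629 and 0.603 FPKM against 1.51, 1.19 and 1.32 FPKM. It was 222% of control and higher in every knockdown library (limma without filter, adjusted p = 0.000669).

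The 4 nuclear factors that pair with beta-catenin went different ways. Lef1 had 16, 15 and 20 reads in the control libraries and 116, 92 and 111 in the knockdown libraries, at 0.0832, 0.0786 and 0.104 FPKM against 0.645, 0.511 and 0.654 FPKM. The groups were far apart, and the depth-scaled read ratio was 6.80 (95% counting interval 5.05 to 9.33, limma without filter adjusted p = 8.60e-05). Lef1 overlaps a non-coding gene, Lef1l, by RefSeq. Tcf7 had 86, 87 and 67 reads against 84, 78 and 63, or 0.196, 0.2004 and 0.153 FPKM against 0.205, 0.190 and 0.163 FPKM. These libraries overlapped, and the mean was 102% of control (log2 fold change 0.00, limma adjusted p = 0.919). Tcf7l1, which mostly represses targets, was at 10.7, 11.5 and 10.2 FPKM against 12.3, 13.0 and 13.6 FPKM. It was higher in all 3 knockdown libraries (log2 fold change 0.24, SE 0.06, limma adjusted p = 0.00487), but lost the call with median-ratio scaling (adjusted p = 0.311) and when quantile normalized (adjusted p = 0.139). Tcf7l2, the main factor of this family in many adult tissues, fell from 3.85, 3.65 and 4.12 FPKM to 2.51, 2.57 and 2.88 FPKM without overlap (log2 fold change -0.42, SE 0.07, limma adjusted p = 0.000488).

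The 7-base core recognised by the Lef1 and Tcf factors was searched as CTTTGAT and as the close variant CTTTGTT. The search covered both strands of the 250 bases before each start site in RefSeq (GRCr8). Other forms, such as CTTTGAA, were not searched, so the shares and the capitals below cover only these 2. CTTTGAT was found in 3.15% of 33469 promoters, CTTTGTT in 5.14%, and either in 8.11%. Of the 34 members with a promoter sequence, 2 (5.88%) held either. The windows of those 2, Axin2 (chr10:94398535-94398784, plus strand) and Dkk1 (chr1:237798651-237798900, minus strand), are printed with the match in capitals. Both genes were higher in the knockdown, and any part of the matches in this was not tested. The windows of Lef1 (chr2:222340463-222340712, plus strand) and Tcf7 (chr10:36954280-36954529, minus strand) are printed for contrast: they held neither core, although Lef1 was higher and Tcf7 was not. Each sequence ends at the base before the start site.
Axin2: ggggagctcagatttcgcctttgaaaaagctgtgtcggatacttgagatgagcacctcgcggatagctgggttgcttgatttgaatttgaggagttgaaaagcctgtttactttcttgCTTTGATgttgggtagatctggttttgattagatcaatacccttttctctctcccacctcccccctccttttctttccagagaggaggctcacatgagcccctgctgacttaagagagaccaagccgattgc
Dkk1: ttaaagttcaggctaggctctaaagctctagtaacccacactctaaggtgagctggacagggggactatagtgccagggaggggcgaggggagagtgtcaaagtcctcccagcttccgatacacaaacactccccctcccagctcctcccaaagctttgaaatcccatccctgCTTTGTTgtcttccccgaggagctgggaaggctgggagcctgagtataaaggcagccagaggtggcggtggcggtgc
Lef1: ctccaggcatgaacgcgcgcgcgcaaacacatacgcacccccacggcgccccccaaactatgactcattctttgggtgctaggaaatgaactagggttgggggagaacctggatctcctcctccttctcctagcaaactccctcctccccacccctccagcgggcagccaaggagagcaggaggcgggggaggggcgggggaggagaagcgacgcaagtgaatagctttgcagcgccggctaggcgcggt
Tcf7: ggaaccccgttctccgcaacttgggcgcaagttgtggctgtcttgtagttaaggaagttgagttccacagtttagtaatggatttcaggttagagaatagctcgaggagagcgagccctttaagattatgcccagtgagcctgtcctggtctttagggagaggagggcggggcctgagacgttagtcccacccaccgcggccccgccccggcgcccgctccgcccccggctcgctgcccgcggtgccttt
The Axin2 match ends 125 bases before the start site and the Dkk1 match 70 bases before it. A match is a run of letters and not a shown binding site, and the absence of one says only that these letters are not in this window.

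Around the members, 6 further lists of the pathway were counted. Of 12 tested genes for ligand processing and secretion, 8 fell (66.7%) and 2 rose (16.7%). For comparison, 32.4% of all features tested fell and 48.4% rose. Trabd2b, a membrane protease that cleaves WNT proteins, was at 23.3 ± 0.671 FPKM in the control and 1.46 ± 0.0849 FPKM in the knockdown (log2 fold change -3.30, limma adjusted p = 6.70e-11), and Gpc3, a glypican that binds ligands at the surface, went from 78.9 ± 8.03 to 7.64 ± 0.331 FPKM (-3.20, limma adjusted p = 2.16e-10). Porcn, the enzyme that attaches the lipid every WNT protein needs, fell from 7.32 ± 0.276 to 2.26 ± 0.114 FPKM (-1.35, limma adjusted p = 3.39e-08). The risers were Gpc1, another glypican, from 50.1 ± 2.79 to 93.6 ± 3.30 FPKM (0.89, limma adjusted p = 1.11e-07), and Sulf2, an editor of heparan sulfate, from 85.1 ± 4.604 to 108 ± 3.09 FPKM (0.34, limma adjusted p = 0.000101). Wls, the ligand carrier, named after its values were seen, had overlapping libraries at 127 ± 3.97 and 121 ± 4.21 FPKM (limma adjusted p = 0.168; SD, n = 3 each throughout).

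Of 9 tested R-spondin, co-receptor turnover and further modulator genes, 4 rose (44.4%) and 5 fell (55.6%), against 48.4% and 32.4% of all features tested. Rspo1, a secreted amplifier of WNT signaling, fell from 13.5 ± 2.48 to 0.388 ± 0.127 FPKM (log2 fold change -3.38, limma adjusted p = 4.60e-09), and Reck, a membrane protein that presents Wnt7a and Wnt7b to frizzled receptors, fell from 16.6 ± 0.516 to 4.16 ± 0.384 FPKM (-1.77, limma adjusted p = 6.38e-09). Tspan12, a partner of Fzd4, rose from 6.80 ± 0.384 to 14.3 ± 0.798 FPKM (0.97, limma adjusted p = 2.94e-07). The R-spondin receptors Lgr6 and Lgr4 rose, from 0.319 ± 0.0316 to 1.91 ± 0.219 FPKM (1.14, limma adjusted p = 6.79e-07) and from 8.21 ± 0.487 to 11.7 ± 0.737 FPKM (0.46, limma adjusted p = 0.000103), and Rspo3 rose from 4.85 ± 0.587 to 8.65 ± 0.329 FPKM (0.73, limma adjusted p = 1.48e-05). Rspo1 reached the level filter only through its control libraries and Lgr6 only through its knockdown libraries, so the filter favoured the direction in which each counts. Rspo1 and Rspo3 went opposite ways. Rspo4, below the filter and named after its values were seen, had 411 reads over the control libraries and none in the knockdown libraries. Against a floor of 3 reads over the knockdown group it was 126-fold lower.

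Of 18 tested Dishevelled and destruction complex genes, 9 rose and 4 fell, or 7 rose and 7 fell after median-ratio scaling. The share that rose, 50%, was near the 48.4% of all features tested, and 22.2% fell against 32.4%. After median-ratio scaling 38.9% rose and 38.9% fell, against 38.8% and 41% of all features. The kinases Csnk1d, from 40.5 ± 0.417 to 67.5 ± 0.967 FPKM (log2 fold change 0.72, limma adjusted p = 8.54e-08), and Gsk3a, from 31.5 ± 1.25 to 51.6 ± 1.84 FPKM (0.69, limma adjusted p = 4.70e-07), which phosphorylate proteins of the complex, rose. So did Tnks2, a tankyrase that marks axin for breakdown, from 17.8 ± 0.283 to 31.1 ± 0.167 FPKM (0.77, limma adjusted p = 1.09e-07), and Fbxw11, which directs beta-catenin to breakdown, from 18.4 ± 0.565 to 28.8 ± 1.53 FPKM (0.62, limma adjusted p = 2.29e-06). The decreases were Dvl2 from 11.4 to 8.69 FPKM, Dvl3 from 23.5 to 18.3 FPKM, Apc from 7.15 to 5.61 FPKM and the phosphatase subunit Ppp2r5e from 5.53 to 4.51 FPKM. Of 17 nuclear partners and repressors, 9 rose and 3 fell, or 8 and 7 after median-ratio scaling. Here too the share that rose, 52.9%, was near that of all features, and 17.6% fell. After median-ratio scaling the shares were 47.1% and 41.2%. Cby1, a small antagonist that binds beta-catenin, fell from 9.71 ± 0.368 to 1.71 ± 0.233 FPKM (-1.98, limma adjusted p = 7.86e-09). Jup, the plakoglobin of cell junctions and a relative of beta-catenin, rose from 46.4 ± 1.46 to 83.4 ± 6.58 FPKM (0.83, limma adjusted p = 5.11e-07). Tle5 and Crebbp also rose, while Tle3, a co-repressor, and Bcl9l, a coactivator, fell from 12.8 ± 0.381 to 7.92 ± 0.745 FPKM and from 12.9 ± 0.812 to 9.25 ± 0.678 FPKM.

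Of 12 tested target genes, 6 rose (50%) and 6 fell (50%), against 48.4% and 32.4% of all features tested. The other genes of the 22 listed lay below the level filter. Without the filter 11 of 22 (50%) were higher and 6 (27.3%) lower, against 32.7% and 20.1% of all features. With voom 12 were higher and 6 lower, against 41.4% and 25.2% of all features. The balance of directions in this list therefore depended on the filter. Fosl1, a subunit of the AP-1 transcription factor, rose from 1.49 ± 0.288 to 13.3 ± 0.247 FPKM (log2 fold change 2.53, limma adjusted p = 3.17e-09). Ccnd1, the cyclin of early cell-cycle entry, fell from 69.5 ± 1.30 to 24.7 ± 1.78 FPKM (-1.46, limma adjusted p = 5.70e-09), as did Nkd2, a Dishevelled-binding antagonist, from 32.2 ± 0.791 to 11.3 ± 1.18 FPKM (-1.44, limma adjusted p = 3.49e-08). Bambi, a decoy receptor of the TGF-beta family, rose from 6.79 ± 0.199 to 12.6 ± 0.422 FPKM (0.81, limma adjusted p = 4.44e-07). Sp5, a direct target in many cell types that was named after its values were seen, had 2 reads over the control libraries and 102 over the knockdown libraries, a ratio of 55.5 (95% counting interval 14.97 to 464).

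Of 20 tested genes of the planar cell polarity and calcium branch, 8 rose and 7 fell, or 6 and 10 after median-ratio scaling. That is 40% and 35%, against 48.4% and 32.4% of all features tested. With median-ratio scaling it is 30% and 50%, against 38.8% and 41%. Ror2, a receptor for Wnt5a, rose from 8.31 ± 0.300 to 17.7 ± 0.603 FPKM (log2 fold change 1.01, limma adjusted p = 7.40e-08), and Camk2b, a calcium-dependent kinase subunit, rose from 0.260 ± 0.0363 to 4.63 ± 0.570 FPKM (2.16, limma adjusted p = 9.62e-09). Camk2b reached the level filter only through its knockdown libraries, so the filter favoured this direction. Ptk7, a co-receptor of planar cell polarity, fell from 57.5 ± 3.16 to 18.2 ± 0.776 FPKM (-1.61, limma adjusted p = 2.93e-09), and Daam2, a formin that acts below Dishevelled, fell from 5.96 ± 0.453 to 1.57 ± 0.118 FPKM (-1.44, limma adjusted p = 6.20e-08). The other decreases were those of Prickle1, Prickle2, Nfatc1, Nfatc4 and Camk2g, with Nfatc4 going from 8.91 to 3.13 FPKM.

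**Figure D5:**
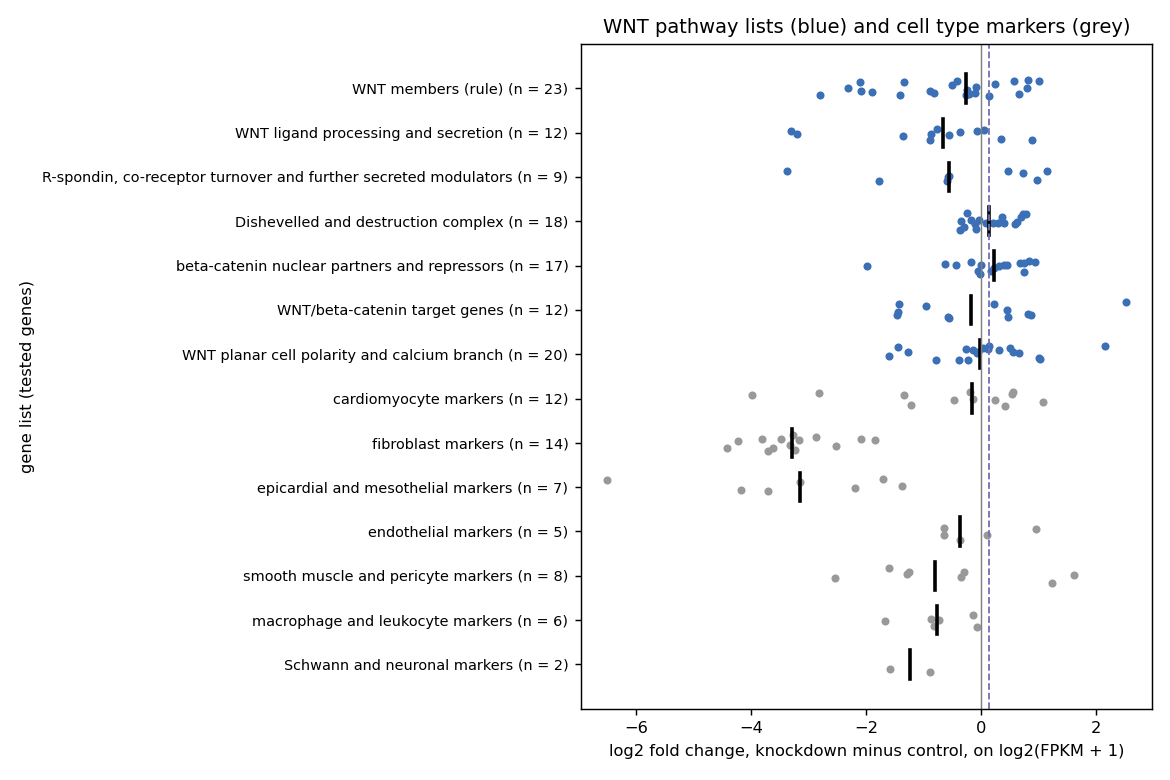
Log2 fold change (knockdown minus control, on log2(FPKM + 1)) of every tested gene in the pathway lists (blue) and cell marker lists (grey); black bars are list medians and the dashed line is the median of all features, 0.14. The 14 fibroblast markers all lie below 0 with a median of -3.29, and the 12 tested WNT target genes lie on both sides of 0 with a median of -0.17.

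Markers of other cell types the cultures could hold were counted as well. Of all features tested, 80.8% were called, 48.4% higher and 32.4% lower. 4 of 6 macrophage markers fell, with a summed level of 539 to 602 FPKM in the control and 329 to 389 FPKM in the knockdown. Of 8 smooth muscle and pericyte markers 2 rose and 6 fell, and their sums overlapped at 285 to 308 and 278 to 303 FPKM. Of 5 endothelial markers 1 rose and 3 fell, and their sums also overlapped, at 13.8 to 15.1 and 12.9 to 14.2 FPKM. Both tested Schwann and neuronal markers fell, and both reached the level filter only through their control libraries. The sum of this list went from 4.57 to 5.33 FPKM to 0.847 to 1.06 FPKM, with Th and Cdh19 at 0 in every knockdown library. The part of these markers in the results of the members was not tested.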

How the data were processed

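RNA was sequenced from 6 libraries, 3 control and 3 Decr1 knockdown, grouped by their labels. Reads went through fastp, HISAT2 and HTSeq, per the submitters' processing notes. Tool versions, genome build, annotation and strand use: not given in the sources used here. Per the file headers, the deposited table holds FPKM (fragments scaled to gene length and library depth), with a column for each library.

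Each feature's values were whole multiples of 1 step within a tolerance of 1e-05 reads, for all 22634 features above 0 of 30001 listed. The smallest whole reads that fit, and the depths behind the FPKM, were recovered from these steps. Depths were 35290664 to 40108670 fragments, of which recovered reads made up 99.7% to 99.8%. The 11975 features averaging 1 FPKM or more were tested on log2(FPKM + 1) with limma 3.58.1 (lmFit, eBayes with trend) in R 4.3.3. Tests were two-sided, p-values were adjusted over all features tested (Benjamini-Hochberg), and 0.05 was the threshold. Alternatives were a pseudocount of 0.1, no filter on low values, a filter at 0.1 FPKM, median-ratio scaling, quantile normalization, no intensity trend, a replicate block, leaving out each library, and, added after the data were seen, limma voom on recovered reads (features with at least 10 reads). The fit and the read recovery were tested on simulated data. Counting intervals are exact (Clopper-Pearson, 95%) and cover counting error only. The floor of 3 reads stands in for a group without reads and does not cover counting error in the other group. Python 3.11.15, pandas 2.3.3, scipy 1.17.1 and matplotlib 3.10.9 were used for tables and figures.

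Members and lists were chosen with earlier results of these data known. The members to be given in full were those past the threshold with a log2 fold change of at least 1 in size, together with the intracellular members and both LRP co-receptors. From each further pathway list the 4 genes with the smallest adjusted p and those called against the majority were named, and Wls, Sp5 and Rspo4 were added after their values were seen. RefSeq (GRCr8) annotates all 48 members. By it, 15 overlap another gene and 6 a protein-coding one, so without a strand setting their reads cannot be told apart. The 6 are Fzd5, Sfrp4, Wnt5b, Wnt10b, Wnt1 and Wnt8b, and Lef1 overlaps a non-coding gene named Lef1l.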

Additional observations from a re-analysis of the deposited data

How the results depend on the processing

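Without the filter on low values, or with a filter at 0.1 FPKM, 13 members were higher, among them 4 ligands, 3 secreted inhibitors and 4 intracellular members (of all features tested, 32.7% and 44.6% were higher). Of the target genes 11 were then higher, and of the endothelial markers 5 were lower (20.1% and 28.7% of all features were lower). Ligands called lower numbered 2 without the filter, with median-ratio scaling and with quantile normalization. With voom on recovered reads, an alternative chosen after seeing the data, 29 of 40 members (72.5%) were called and 14 (35%) were higher. These included 5 ligands, 3 secreted inhibitors and 4 intracellular members. In the same fit 66.6% of all features were called, 41.4% higher and 25.2% lower. There 3 ligands and 5 endothelial markers were lower, and 12 target genes were higher. Both scalings left 1 intracellular member higher and put 2 lower. Median-ratio scaling put 7 Dishevelled and destruction complex genes and 7 nuclear partners lower, and quantile normalization put 5 nuclear partners lower. The shares of all features lower were 41% and 38.1% with these scalings. These settings test more genes or shift all values; other causes were not tested. Higher calls made up 59.9% of all calls, 48.7% with median-ratio scaling and 52.2% with quantile normalization.

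Leaving out each library in turn gave 18 to 19 members called, 12 to 13 lower and 6 higher, with 1 to 2 ligands lower. Over all features 77.6% to 79.0% were called in these fits, 30.9% to 31.8% lower and 46.5% to 47.2% higher. The 18 were each time those without Fzd3, and the second ligand, without control replicate 2, was Wnt5a. Fzd3 also missed the threshold without the filter (adjusted p = 0.0694) and with voom (adjusted p = 0.0541). With voom, Wnt5a passed (adjusted p = 0.0225). No member past the threshold reversed its direction under these alternatives.

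The labels number the replicates 1 to 3 in both groups. Deviations of libraries with the same number correlated at -0.00267, 0.0678 and -0.0713, and not every library correlated best with its own number. Whether libraries with the same number share a culture or preparation is not stated in the labels. With 3 libraries in each group these correlations cannot settle it. With the number as a replicate block the same 19 members were called, 6 higher and 13 lower, and 9574 features in all instead of 9678.

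Depth limits the 25 members below 1 FPKM. A member with no reads was not detectable at this depth, which does not show that it is absent.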
